A study of Homo sapiens with 32 samples.

Results

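The baseline difference in polysome loading between 2 breast cell lines was measured in normoxia, as polysome-bound mRNA (P) over total mRNA (T) in MDA-MB-231 set against the same ratio in MCF10A. The libraries were chosen from their labels alone: 8 of the 32 libraries of the series were normoxic without inhibitor (N), 2 cultures of each line with a T and a P library from each culture. MCF10A is an immortalised, non-tumourigenic breast epithelial line, and MDA-MB-231 is a triple-negative breast cancer (TNBC) line with mesenchymal features. The other 24 libraries came from the same lines after hypoxia at 0.5% O2 for 24 h (H), after the mTOR kinase inhibitor PP242 at 2.5 µM for 3 h in normoxia (NPP), or after both (HPP). According to the study's methods, controls received the inhibitor's solvent, dimethyl sulfoxide. MCF10A was grown with epidermal growth factor, hydrocortisone, cholera toxin and insulin, and MDA-MB-231 in serum medium without these additions, so line and medium cannot be told apart. The counts of the lines were deposited in separate tables, and any difference in handling between these sets and the line cannot be told apart.

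An mRNA that is being translated carries several ribosomes and sediments as a polysome in a sucrose gradient, whereas an mRNA held back from translation stays in the lighter fractions. The ratio P/T of an mRNA, its polysome loading, is therefore read as a measure of how much of that mRNA is engaged by ribosomes. mRNAs for ribosomal proteins and elongation factors start with a 5′ terminal oligopyrimidine (TOP) tract, through which mTOR signalling controls their recruitment to polysomes, while mRNAs made inside mitochondria are translated by mitochondrial ribosomes and are not expected in cytoplasmic polysomes.

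TOP tracts were looked up at the RefSeq gene starts (GRCh38.p14) as a C within 3 bases of the annotated start, followed by at least 5 further C or T bases on the coding strand. Such a run was found in 24 of 38 large-subunit ribosomal protein genes with a sequence, in 20 of 25 small-subunit genes, and in 822 of 9516 tested genes with a sequence, or 8.64%. The 30 bases from 10 before the start are shown for RPLP0, RPS6 and EEF1A1, and for EIF4B, TOMM20 and PON2. RPLP0, RPS6 and EEF1A1 are abundant TOP mRNAs in which a run was found. Their loading was higher in culture 1 than in culture 2 of MCF10A. EIF4B, TOMM20 and PON2 are among the named genes, chosen with non-overlap of the cultures between the lines as a condition. The edgeR fit without a block called none of them in normoxia. No run was found at the annotated start of EIF4B, nor at that of RPL10, although both are listed as TOP mRNAs. Capitals mark the run, and no capitals are shown where no run was found in this window.
RPLP0, chr12:120201092-120201121, minus strand: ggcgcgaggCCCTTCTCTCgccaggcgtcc
RPS6, chr9:19380217-19380246, minus strand: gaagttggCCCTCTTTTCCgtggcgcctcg
EEF1A1, chr6:73521013-73521042, minus strand: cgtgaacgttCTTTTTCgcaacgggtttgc
EIF4B, chr12:53006446-53006475, plus strand: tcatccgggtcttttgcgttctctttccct
TOMM20, chr1:235128818-235128847, minus strand: tgtgctcggCCTTTCTgtgttcctggcccg
PON2, chr7:95435009-95435038, minus strand: ggccggcaccatcgagccgggaagatggca

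The normoxic libraries held between 18340916 counts (MDA-MB-231 T, culture 2) and 46032327 counts (MCF10A P, culture 2). The shallowest library also stood apart in another way: 17923 protein-coding genes had at least 1 count in it, against 13995 to 15301 in the other 7. In that library the liver gene ALB was at 0.661 CPM (counts scaled to library size) and the basal keratin KRT5 at 0.236 CPM, whereas both were at or below 0.0768 CPM in the other MDA-MB-231 libraries. The leading genes are therefore given with and without it. Mitochondrially encoded mRNA took 7.94% and 6.27% of the counts in MCF10A T and 0.906% and 0.756% in MCF10A P. In MDA-MB-231 it took 4.88% and 5.50% of T and 0.545% and 0.993% of P, so the P libraries of both lines were low in these mRNAs to a similar extent.

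The line labels were checked against markers, in CPM in the normoxic libraries. The basal keratins KRT5 (1351 to 2029) and KRT14 (520.4 to 1133) were abundant in MCF10A and at most 0.236 and 0.434 in MDA-MB-231. The collagenase MMP1 was at 209.3 to 307.1 in MDA-MB-231 and at most 0.068 in MCF10A. ZEB1, AXL and CD44 were also higher in MDA-MB-231. FN1 was higher in MCF10A (1150 to 2821, against 67.82 to 103.9 in MDA-MB-231), as was CAV1 (2290 to 2584, against 358.8 to 447.4). The summed level of the mesenchymal-like markers was 7809 to 8106 in MCF10A and 4613 to 5762 in MDA-MB-231. That of the basal markers was 2578 to 3865 in MCF10A and 305.5 to 414 in MDA-MB-231. Some defining markers went against the textbook picture: the epithelial cadherin CDH1 and the basal factor TP63 were at or below 0.12 in MCF10A, vimentin (VIM) was at 2197 to 3859 there, and the matrix protein SPARC was at 128.0 to 176.3 in MCF10A but at most 0.661 in MDA-MB-231. Of 6 markers of blood, endothelial and liver cells, CD68 was present in all 8 libraries (40.3 to 105.7) and the other 5 stayed at or below 1.15. The summed level of these 6 markers was 40.6 to 67.2 in MCF10A and 74.7 to 107.9 in MDA-MB-231, and their part in the results was not tested. In such bulk libraries fewer cells of a kind and less RNA per cell cannot be told apart.

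Loading was compared for 12374 protein-coding mRNAs with edgeR's quasi-likelihood test, as the difference between the lines of the difference between P and T. A positive log2 difference means more loading in MDA-MB-231. Values are relative to the average mRNA of each library, so a difference between the lines in overall translation would not appear in them. Loading was broadly shared: the fitted values of the lines had a Pearson r of 0.59 and a Spearman rho of 0.69 across genes, as a description, with library depth and transcript properties common to all points. The line difference had a median of 0.00 and lay within 0.5 of 0 for 81.7% of genes, and 3.43% of genes had a log2 difference beyond 1 in either direction. One gene was called at an adjusted p of 0.05 (0.00808% of genes tested), and it was lower in MDA-MB-231. No gene was called higher by edgeR, whereas DESeq2 called 1 gene higher, the readthrough gene NDUFC2-KCTD14, which is listed at 0 in both MDA-MB-231 T libraries, and 3 lower, CHMP4C, PON2 and FAM213A. At an unadjusted p under 0.05 there were 60 genes with higher loading in MDA-MB-231 (0.485%) and 90 with lower (0.727%). By comparison, 4309 genes (34.8%) were called for the line difference in T itself and 5028 (40.6%) for that in P, each from a contrast of 2 groups in place of 4. The median standard error (SE) of the line difference in loading was 0.45. Its 95% interval, not adjusted for the number of genes, reached 0.94 on either side for the median gene. A call after adjustment needed a larger difference than that for most genes: PON2, at -2.26 ± 0.40 (SE), was not called by edgeR. The small number of calls therefore does not show that loading was equal in the lines.

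**Figure D1:**
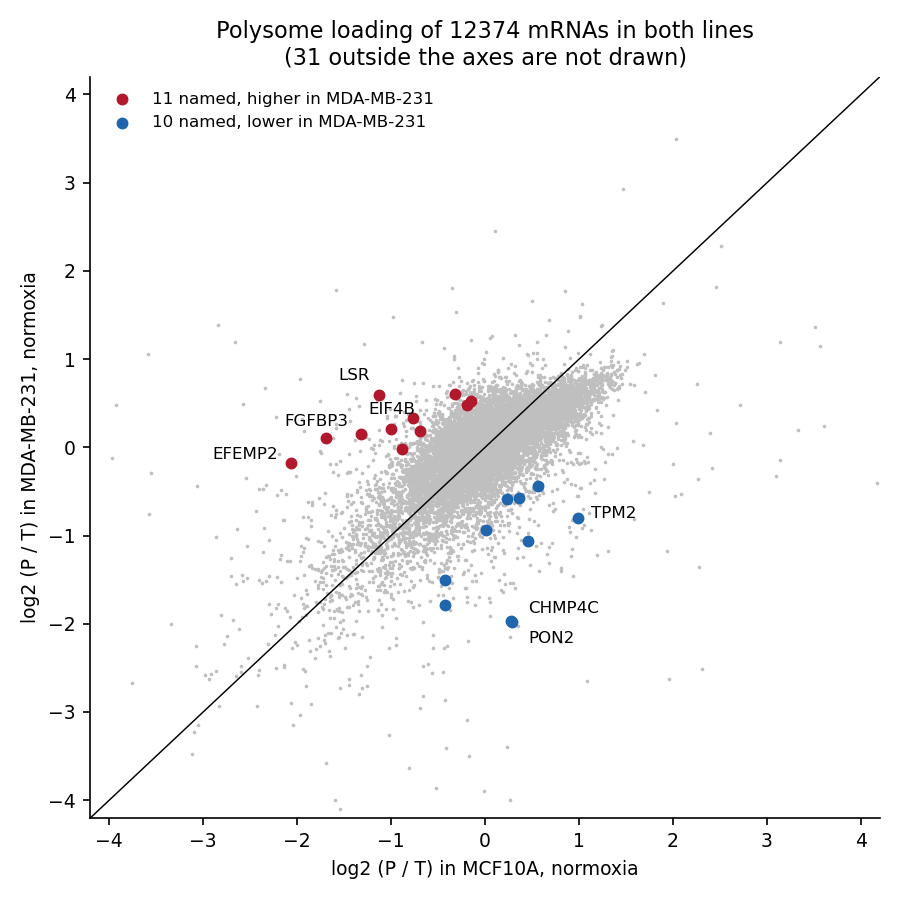
Polysome loading in normoxia, log2 (P/T) as fitted, in MCF10A (x axis) and MDA-MB-231 (y axis). Each grey point is an mRNA, the line marks equal loading, and 21 of the 24 named genes are coloured by direction; most mRNAs lie along the line, and CHMP4C and PON2 lie together far below it, at about 0.28 in MCF10A, against -1.97 in MDA-MB-231.

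CHMP4C, a subunit of the ESCRT-III membrane-scission complex that also guards the last step of cell division (chromosome 8, 81732448 to 81759515, plus strand), was the gene called. Its level in T was 13.2 and 10.8 CPM in the MCF10A cultures and in P 14.9 and 14.1 CPM. In MDA-MB-231 it was at 2.59 and 3.43 CPM in T and at 0.851 and 0.686 CPM in P, or 83, 72, 22 and 24 counts. Loading was therefore near that of the average mRNA in both MCF10A cultures (log2 P/T of 0.18 and 0.39) and far below it in both MDA-MB-231 cultures (-1.54 and -2.23), and the lines did not overlap. The log2 line difference was -2.25 ± 0.34 (SE), 4.75-fold lower loading in MDA-MB-231, with an adjusted p of 0.0201 in edgeR. Its size varied little between fits, from -2.04 to -2.44, but the call was lost when any library other than MCF10A P of culture 2 or MDA-MB-231 T of culture 1 was left out, with an adjusted p of up to 0.576 in edgeR. With the culture as a block, pairing T and P, the edgeR adjusted p was 0.152. Without the shallow MDA-MB-231 T library of culture 2 the difference was -2.04 and the edgeR adjusted p 0.222.

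PON2, an intracellular paraoxonase with lactonase and antioxidant activity (chromosome 7, 95404862 to 95435028, minus strand), had nearly the same pattern. It was abundant in MCF10A, at 168.3 and 156.9 CPM in T and 191.2 and 205.8 CPM in P, and scarce in MDA-MB-231, at 5.88 and 5.14 CPM in T and 1.59 and 1.23 CPM in P. The log2 loading was 0.18 and 0.39 in MCF10A against -1.85 and -2.01 in MDA-MB-231, again without overlap. The log2 difference of -2.26 ± 0.40 (SE) gave an adjusted p of 0.081 in edgeR and was not called. It was called by DESeq2 (adjusted p = 0.000131) and in edgeR with the replicate number as a block within each line and fraction (adjusted p = 0.0189). Without the shallow MDA-MB-231 T library its difference was -2.36. Within MDA-MB-231 the depletion from polysomes was itself called for both genes, at -1.97 ± 0.26 for CHMP4C and -1.98 ± 0.30 for PON2, with edgeR adjusted p of 0.00168 and 0.00463. These calls depended on single P libraries of MDA-MB-231: without that of culture 2 the edgeR adjusted p was 0.0942 for CHMP4C and 0.196 for PON2, and without that of culture 1 it was 0.0357 and 0.0816. With the culture as a block both were called, each with an edgeR adjusted p of 0.0255. Within MCF10A the fitted loading was 0.28 ± 0.22 and 0.29 ± 0.26, and neither was called.

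The remaining genes chosen, 24 with these and 12 in each direction, were not called. They were taken by the smallest unadjusted p among genes with at least 1 CPM in the T libraries of each line whose cultures did not overlap between the lines, a condition met, before the limit on CPM, by 2951 of 12374 genes (23.8%), of which 1597 (12.9%) were higher and 1354 (10.9%) lower in MDA-MB-231. Their adjusted p was 1.00 in edgeR, and the values below describe these 8 libraries. The cultures' loading shows their pattern gene by gene.

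**Figure D2:**
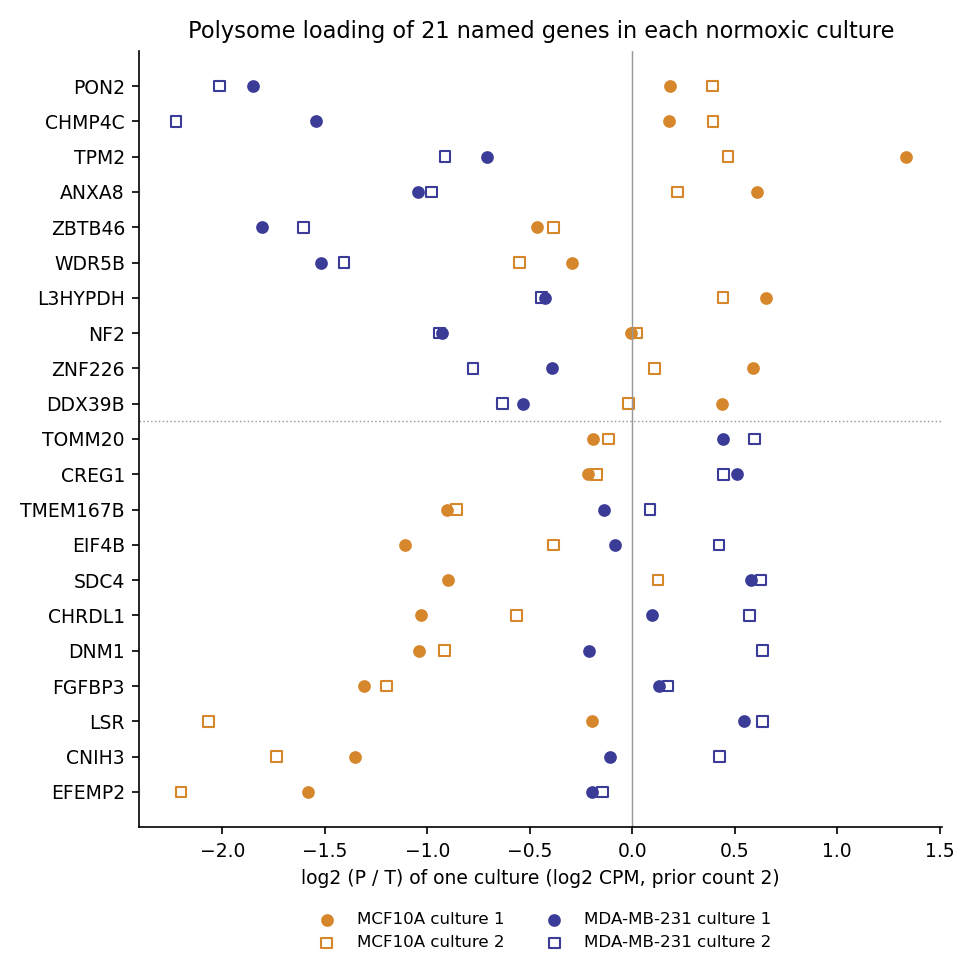
log2 (P/T) of 21 of the 24 named genes in each normoxic culture, from log2 CPM with a prior count of 2 (x axis), one gene per row, with genes lower in MDA-MB-231 above the dotted line and genes higher below it. The cultures of the lines do not overlap in any row, which the choice of genes fixed; the distance between the lines is widest for CHMP4C and PON2, and the 2 MCF10A cultures lie far apart for LSR, TPM2 and SDC4.

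Among the genes with lower loading in MDA-MB-231 was that for a membrane-bound protein. ANXA8, a calcium-dependent membrane-binding annexin, was at 96.3 and 73.6 CPM in MCF10A T and 1.50 and 1.52 CPM in MDA-MB-231 T, with loading of 0.61 and 0.22 against -1.05 and -0.98 (difference -1.52 ± 0.46). ANXA8 has a near-identical copy, ANXA8L1, so its counts are uncertain. In MDA-MB-231 it had 48 and 32 counts in T and 18 and 26 in P, so its loading there rests on few counts.

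Cytoskeletal and signalling genes followed. TPM2, the beta-tropomyosin of actin filaments, was at 655.5 and 572.3 CPM in MCF10A T and at 11.2 and 8.24 CPM in MDA-MB-231 T. Its loading was 1.33 and 0.47 in the MCF10A cultures and -0.71 and -0.91 in MDA-MB-231 (difference -1.80 ± 0.54). NF2, which encodes the tumour suppressor merlin of the Hippo pathway, was the most even within lines, with loading of 0.00 and 0.02 in MCF10A against -0.93 and -0.94 in MDA-MB-231 (difference -0.95 ± 0.33). DDX39B, an RNA helicase of mRNA export, was more abundant in the tumour line in T, with 523.1 and 513.0 CPM in MDA-MB-231 T against 413.3 and 391.9 in MCF10A T. In P the order was turned, at 361.7 and 331.0 CPM in MDA-MB-231 against 559.9 and 386.9 in MCF10A, and the line difference in loading was -0.81 ± 0.29. Its line difference was called neither in T (0.36, edgeR adjusted p = 0.172) nor in P (-0.45, edgeR adjusted p = 0.080). L3HYPDH, a dehydratase of hydroxyproline breakdown, had loading of 0.65 and 0.44 in MCF10A against -0.42 and -0.44 in MDA-MB-231 (difference -0.997 ± 0.27). Genes for nuclear factors completed the group, with ZBTB46 at -1.36 ± 0.38, the WD-repeat gene WDR5B at -1.08 ± 0.35 and the zinc finger gene ZNF226 at -0.94 ± 0.32. ZBTB46 and WDR5B were below the average mRNA in all 4 cultures, and lower in MDA-MB-231 than in MCF10A. ZBTB46 had 87 and 50 counts in MDA-MB-231 T and 19 and 26 in P, so its loading there rests on few counts.

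The 12 genes with higher loading in MDA-MB-231 included secreted and cell-surface proteins. FGFBP3, a secreted carrier of fibroblast growth factors, had a log2 loading of -1.31 and -1.20 in MCF10A against 0.13 and 0.17 in MDA-MB-231, a difference of 1.47 ± 0.39. EFEMP2, the elastic-fibre protein fibulin-4, was at -1.58 and -2.20 against -0.20 and -0.15 (difference 1.89 ± 0.54). CHRDL1, a secreted antagonist of bone morphogenetic proteins, was at -1.03 and -0.57 against 0.10 and 0.57 (difference 1.10 ± 0.40). All 3 were scarce in MCF10A, so their loading there rests on few counts: FGFBP3 had 79 and 77 counts in T and 24 and 34 in P, EFEMP2 had 46 and 48 in T and 11 and 9 in P, and CHRDL1 had 36 and 53 in T and 13 and 37 in P. SDC4, a heparan sulfate proteoglycan of the cell surface, was abundant in both lines (435.2 and 393.3 CPM in MCF10A T, 90.9 and 93.8 in MDA-MB-231 T). Its loading of -0.90 and 0.13 in MCF10A spanned most of the distance to the 0.58 and 0.63 of MDA-MB-231 (difference 0.93 ± 0.32).

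EIF4B, an initiation factor that stimulates unwinding of mRNA by eIF4A and is listed as encoded by a TOP mRNA, although no run was found at its annotated start, was the only member of the TOP lists among the named genes. It was at 351.1 and 359.0 CPM in MCF10A T and 162.9 and 275.2 CPM in P. In MDA-MB-231 it was at 164.5 and 158.2 CPM in T and 155.3 and 212.3 CPM in P. Its loading of -1.11 and -0.38 in MCF10A lay below the -0.08 and 0.42 of MDA-MB-231 (difference 0.88 ± 0.33). TOMM20, an import receptor of the outer mitochondrial membrane, was even within both lines, at -0.19 and -0.12 against 0.45 and 0.60 (difference 0.67 ± 0.26), as was CREG1, a secreted glycoprotein, at -0.22 and -0.18 against 0.51 and 0.44 (0.67 ± 0.27).

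Membrane traffic was represented by DNM1, a dynamin that pinches off vesicles, at -1.04 and -0.92 in MCF10A against -0.21 and 0.64 in MDA-MB-231 (difference 1.21 ± 0.38), and by CNIH3, a cornichon-family cargo adaptor, with a difference of 1.80 ± 0.69. Both were scarce in MCF10A as well, DNM1 with 60 and 88 counts in T and 22 and 48 in P, and CNIH3 with 39 and 53 in T and 11 and 15 in P. LSR, a lipoprotein receptor of tricellular junctions, had the widest spread within a line, at -0.20 and -2.07 in MCF10A against 0.55 and 0.64 (1.73 ± 0.59), on 59 and 115 counts in MCF10A T and 40 and 27 in P. TMEM167B had loading of -0.91 and -0.86 against -0.14 and 0.09 (0.86 ± 0.32) at almost the same T level in the lines, 25.2 and 29.7 CPM in MCF10A and 29.3 and 27.5 CPM in MDA-MB-231.

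In 16 of the 24 named genes (66.7%) the line with less of the mRNA in T also had the lower loading, and the same was so for 52.5% of all genes tested. Across all 12374 genes the line difference in T and that in loading had a Spearman rho of 0.07, as a description; T enters both quantities. For the 175 genes lower in MDA-MB-231 T by a log2 of more than 4 the median line difference in loading was -0.23, and for the 199 genes higher by as much it was 0.04. With the loading difference averaged over the other 3 conditions the rho was -0.07, and these medians were -0.03 and 0.08.

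The same contrast was then read in the 24 libraries of H, NPP and HPP, which share no library with the normoxic comparison, although they come from the same lines and the same joint fit. All 24 named genes kept their sign in H and in NPP, and 22 kept it in HPP, where ANXA8 (0.04 ± 0.43) and TPM2 (0.07 ± 0.53) did not. Over all genes tested the sign was shared with normoxia by 71.0% in H, 52.6% in NPP and 53.2% in HPP. The 150 genes with an unadjusted p under 0.05 in normoxia shared it in 82.0% in H and 80.7% in NPP, and 114 of the 150 did in HPP. Taken singly, H gave 2 calls by edgeR (0.0162% of genes tested), and NPP and HPP 1 each (0.00808%). With the culture as a block there was 1 call in H, 0 in NPP and 0 in HPP.

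**Figure D3:**
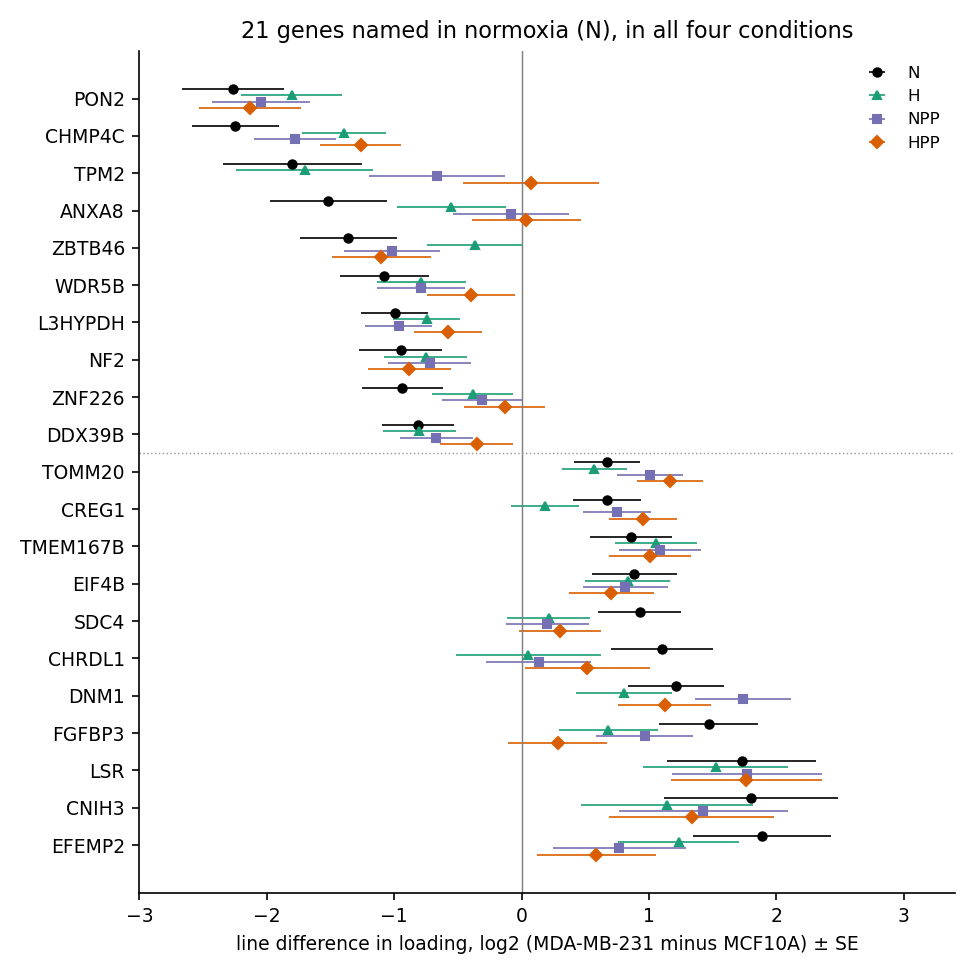
Line difference in loading, log2 (MDA-MB-231 minus MCF10A), of 21 of the 24 genes named in normoxia, in N and in the 3 other conditions, with bars of ± 1 SE from the joint fit. PON2, TMEM167B and LSR lie at similar distances from 0 in all 4 conditions, whereas the difference for TPM2 runs from -1.80 in N to 0.07 in HPP and that for ANXA8 from -1.52 to 0.04.

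With the contrast averaged over H, NPP and HPP, 8 genes were called by edgeR (0.0647% of genes tested), 4 in each direction (0.0323%), and 6 of them were among the 24 named in normoxia. The count was 4 with the culture as a block, 181 with the replicate number as a block within line and fraction, and 258 with an offset for transcript length. PON2 was at -1.99 ± 0.23 (adjusted p = 0.000136) and CHMP4C at -1.48 ± 0.19 (adjusted p = 0.000451). On the higher side TOMM20 was at 0.91 ± 0.15, DNM1 at 1.22 ± 0.21 and TMEM167B at 1.05 ± 0.18, with edgeR adjusted p of 0.0122, 0.0234 and 0.0234. With the culture as a block these 3 calls were lost, at an edgeR adjusted p of 0.117 for TOMM20 and 0.11 for DNM1 and TMEM167B, whereas PON2 (0.00083) and CHMP4C (0.0118) were called. The lower loading of PON2 in MDA-MB-231 was nearly the same size in every condition, at -1.81 in H, -2.04 in NPP and -2.13 in HPP, and its 6 MDA-MB-231 cultures outside normoxia lay between -1.29 and -2.05, against -0.04 to 0.61 in the 6 MCF10A cultures. CHMP4C was at -1.40, -1.78 and -1.26. TOMM20 showed another course: its line difference was 0.57 in H but 1.01 in NPP and 1.17 in HPP, where its loading in MCF10A went down to -1.78.

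PODXL2 and HOXC8 were called in the average as well. PODXL2, a sialomucin-type membrane protein related to podocalyxin, was at 3.54 ± 0.32 (edgeR adjusted p = 4.52e-06, and 0.00083 with the culture as a block), and in normoxia at 2.11 ± 0.52 with an unadjusted p of 0.000846 in edgeR. It fell outside the named genes through its low level in MCF10A, where T held 8 and 13 counts and P 1 and 4, against 315 to 546 in MDA-MB-231, so its loading in MCF10A rests on few counts. HOXC8, a homeobox transcription factor, was at -1.76 ± 0.32 (edgeR adjusted p = 0.0273, but 0.175 with the culture as a block) and in normoxia at -0.90 ± 0.53, with loading of -0.32 and 0.55 in MCF10A against -0.73 and -0.57 in MDA-MB-231.

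Of the genes on 25 lists of pathways, mRNA classes and cell-type genes, 1094 were tested, none was called by edgeR, and 8 had an unadjusted p under 0.05, or 0.731% against 1.21% of all genes tested. Besides SDC4, EIF4B and ZNF226 these were FGF2 (-2.90 ± 1.36), the zinc finger genes ZNF547, ZNF571 and ZNF596 (-0.84, -0.94 and -0.82), and the histone gene HIST2H2AA4 (-3.36 ± 1.61), which has a near-identical copy. FGF2, a growth factor whose mRNA is known for cap-independent initiation, was at 429.6 CPM in MCF10A T on average and 0.466 CPM in MDA-MB-231 T, so its loading in MDA-MB-231 rests on few counts. The lists are described here by their medians, beside a median of 0.00 over all genes tested. With single libraries left out in turn, the median kept its sign throughout in 5 of the 25 lists and changed it in 20. The 5 were tRNA synthetases, mRNAs with iron-responsive elements, mRNAs listed as sensitive to eIF4E, immediate early mRNAs, and mesenchymal and invasion genes. That concerns normoxia alone. In H the eIF4E-sensitive, immediate early and mesenchymal medians were below 0, at -0.09, -0.04 and -0.07. Those of tRNA synthetases and mRNAs with iron-responsive elements were below 0 in H, NPP and HPP too.

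The mRNAs of the translation machinery had medians close to 0 in normoxia. The median line difference was -0.08 for 47 large-subunit ribosomal proteins, of which 19 lay above 0, and -0.05 for 32 small-subunit proteins, of which 11 lay above 0. For 18 other TOP mRNAs it was 0.16, with 12 above 0. These medians hid a wide gap between the MCF10A cultures: the median loading of the large-subunit list was 0.92 in MCF10A culture 1 and -0.09 in culture 2, against 0.67 and 0.33 in MDA-MB-231. RPLP0, the most abundant gene of that list, was at 0.47 and -1.21 in MCF10A and at -0.69 and -1.18 in MDA-MB-231 (difference -0.64 ± 0.74). EEF1A1, the elongation factor that delivers tRNA, was more even at -0.08 and -0.57 against 0.18 and 0.12 (difference 0.47 ± 0.52). Without MCF10A culture 1 the medians of both ribosomal protein lists were 0.57 and 0.69, so their normoxic value depended on that culture. The median of the other TOP mRNAs was 0.43 without MCF10A P of culture 1 and -0.098 without that of culture 2, so its sign rested on single libraries too. In the libraries treated with PP242 the large- and small-subunit lists stood at 1.25 and 1.12 in NPP and 1.37 and 1.30 in HPP, against 0.39 and 0.47 in H. Over all genes the median was 0.08 in NPP, 0.00 in HPP and -0.04 in H. The MCF10A cultures lay far apart there too. Median loading of the large-subunit list was -1.40 and -2.78 in MCF10A in NPP, against -0.88 and -0.94 in MDA-MB-231. In HPP it was -1.91 and -3.58 against -1.37 and -1.24. The size of these line differences therefore leaned on MCF10A culture 2. Initiation factors had a median of -0.03 in normoxia, with EIF4A1, the helicase of the cap-binding complex, at -0.17 ± 0.43.

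Respiratory chain and mitochondrial ribosome genes of the nucleus had medians below 0, which did not remain without MCF10A culture 1. No member was called by edgeR or had an unadjusted p under 0.05. The median line difference was -0.50 for 76 respiratory chain genes, with 73 of 76 below 0, and -0.36 for 75 genes of the mitochondrial ribosome, with 68 of 75 below 0, while 6185 of the 12374 genes tested were below 0. Proteasome genes had a median of -0.31, with 31 of 34 below 0. Members whose cultures did not overlap between the lines and lay lower in MDA-MB-231 numbered 8 of 76, 3 of 75 and 3 of 34, beside 10.9% of all genes. MCF10A culture 1 stood above the other cultures: the respiratory chain genes had a median loading of 1.27 in MCF10A culture 1 and 0.46 in culture 2, against 0.65 and 0.36 in MDA-MB-231. ATP5B, the beta subunit of ATP synthase, was at 0.78 and 0.60 in MCF10A against 0.58 and 0.43 in MDA-MB-231 (difference -0.19 ± 0.38). MRPL51, of the large mitochondrial ribosomal subunit, was at 1.61 and 0.66 against 0.83 and 0.20 (difference -0.69 ± 0.52). Without MCF10A culture 1 the medians were 0.04, 0.04 and -0.02 for the respiratory chain, mitochondrial ribosome and proteasome lists. In the other conditions the respiratory chain median was -0.34 in H, 0.15 in NPP and 0.24 in HPP.

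**Figure D4:**
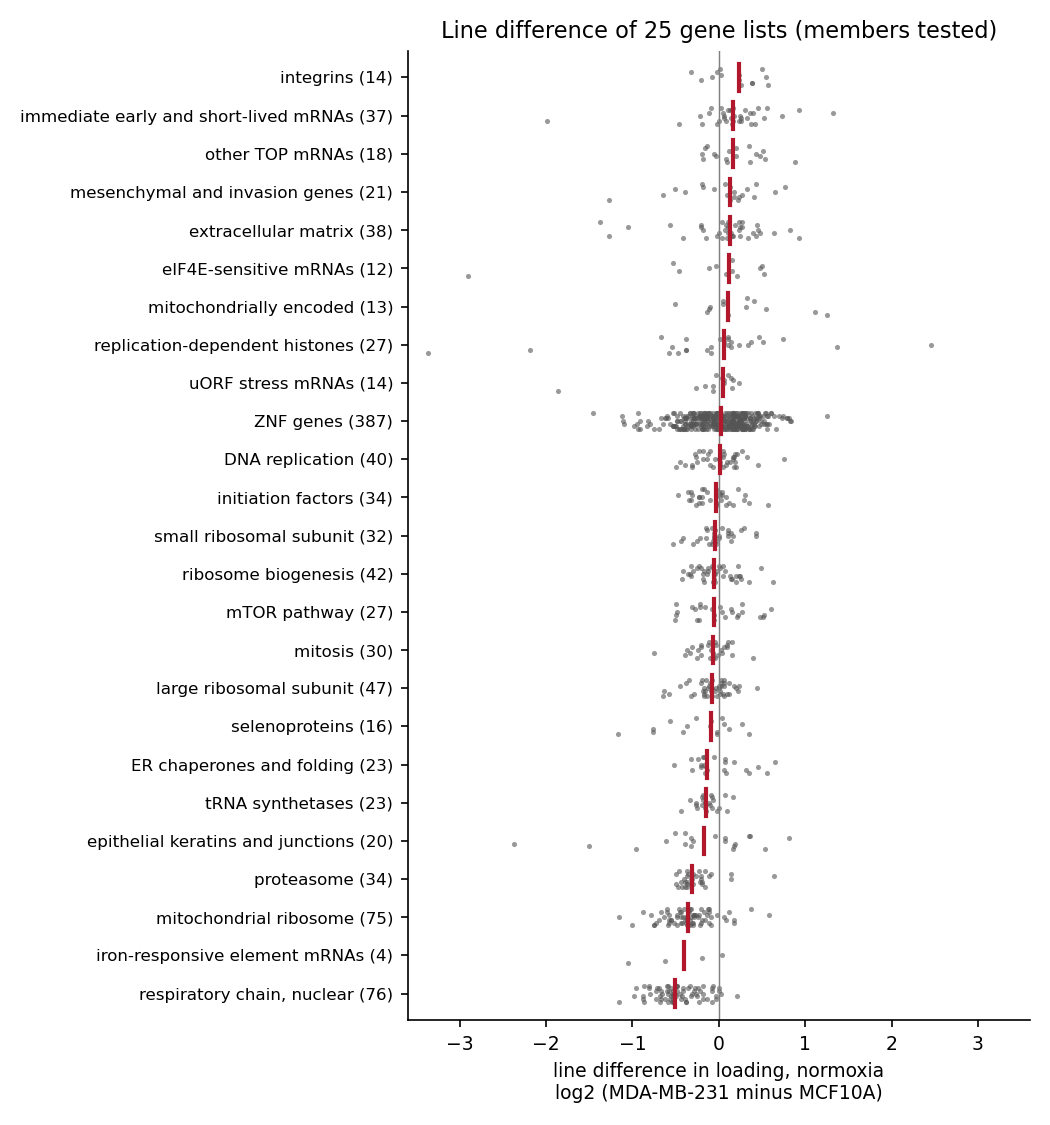
Line difference in loading in normoxia for the members of 25 gene lists, log2 (MDA-MB-231 minus MCF10A); each grey point is a gene, the red bar is the list's median, and the number in brackets is the number of members tested. Medians run from -0.50 for the nuclear respiratory chain genes to 0.23 for integrins, and each of the 25 lists has members on both sides of 0.

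The mRNAs encoded in the mitochondrial genome marked the other end of the loading scale in both lines. Their median fitted loading was -2.71 in MCF10A, against -2.55 in MDA-MB-231, and 11 and 7 of 13 were called as depleted from polysomes, against 1.07% and 0.84% of all genes. The number called in either direction within a line changed with the fit, from 0 to 1969 in MCF10A and from 0 to 2002 in MDA-MB-231. MT-CO2, a cytochrome c oxidase subunit, was at -2.76 and -3.68 in the MCF10A cultures and -3.42 and -3.08 in MDA-MB-231, and the lines overlapped. MT-ND4, a subunit of complex I, was at -2.70 and -2.45 against -2.86 and -2.22 (line difference 0.11 ± 0.51).

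Depletion was partly common to the lines: 60 genes were called as depleted in both by edgeR, 45.1% of those of MCF10A and 57.7% of those of MDA-MB-231, of which 7 were encoded in the mitochondrial genome and 53 were not. With the culture as a block 14 genes were called in both, the 7 mitochondrially encoded among them, and SEPW1, GNG10 and OST4, named here for their low loading, were no longer so. SEPW1, a small selenoprotein, was at -2.69 and -3.17 in MCF10A against -2.53 and -2.60 in MDA-MB-231. GNG10, a G protein gamma subunit, was at -2.39 and -2.89 against -1.94 and -2.17. Its counts overlap those of the readthrough gene DNAJC25-GNG10. OST4, a very short subunit of the oligosaccharyltransferase, was at -1.69 and -3.13 against -2.33 and -2.67. The ferritin heavy chain FTH1, whose mRNA is known to be held back through an iron-responsive element, was called as depleted in MDA-MB-231 (edgeR adjusted p = 0.023) but not in MCF10A (0.0584), at -1.34 and -2.74 in MCF10A against -2.26 and -2.82 in MDA-MB-231 (difference -0.62 ± 0.71), at a T level of 6459 and 7229 CPM against 723.9 and 848.6 CPM. The 4 tested mRNAs with such elements had a median line difference of -0.40. In polysomes 38 genes were called as enriched in MCF10A (0.307%) and 0 in MDA-MB-231 (0.0%) by edgeR. At an unadjusted p under 0.05 these counts were 1592 and 730. The counts depended on the fit. DESeq2 called 752 in MCF10A, against 42 in MDA-MB-231, in the same order. The order was turned round by limma-voom with weights per line, which called 0 against 955. It was also turned round in edgeR with the culture as a block, at 0 against 1.

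Adhesion, matrix and epithelial genes had members on both sides in loading. In T, 8 of 14 integrins, 28 of 38 extracellular matrix genes, 15 of 21 mesenchymal and invasion genes and 16 of 20 keratin and junction genes were called between the lines, against 34.8% of all genes. In loading no member was called by edgeR. Integrins had a median of 0.23 over 14 genes, extracellular matrix genes 0.13 over 38, mesenchymal and invasion genes 0.14 over 21 and epithelial keratins and junction genes -0.17 over 20. Members ran from -0.32 to 0.57 for integrins, -1.38 to 0.93 for matrix genes, -1.27 to 0.76 for mesenchymal and invasion genes and -2.38 to 0.81 for keratins and junctions. Without MCF10A culture 1 the integrin and matrix medians changed sign, to -0.19 and -0.21. With single libraries left out, the matrix median ran from -0.07 (without MDA-MB-231 T of culture 2) to 0.41 and the mesenchymal median from 0.03 (without MCF10A P of culture 1) to 0.40, both highest without MCF10A P of culture 2. In H, NPP and HPP the medians were -0.06, -0.10 and -0.26 for integrins and -0.09, -0.25 and -0.43 for matrix genes. They were -0.07, -0.03 and -0.17 for mesenchymal genes and -0.35, 0.12 and -0.23 for keratins and junctions. TGFBI, a matrix protein at 9862 and 7953 CPM in MCF10A T and 34.6 and 20.6 CPM in MDA-MB-231 T, had a loading of -0.05 and -0.02 against 0.10 and 0.42 (difference 0.26 ± 0.42). The hair keratin KRT81, at 8066 and 7596 CPM against 65.1 and 38.3 CPM in T, was at 1.57 and 0.74 against 0.95 and 0.65 (difference -0.39 ± 0.68). ITGB1, the common beta subunit of many integrins, was at 0.00 and 0.60 against 0.11 and 0.36 (difference -0.07 ± 0.49).

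ITGB3, the beta subunit of the vitronectin receptor and the gene that the series is named for, could not be placed. Its loading was -3.24 in MCF10A culture 1 and 0.23 in culture 2, and -0.92 and 0.10 in MDA-MB-231, so the MCF10A cultures enclosed those of MDA-MB-231. In CPM its level in MCF10A was 7.34 and 5.87 in T and 0.726 and 6.88 in P, and in MDA-MB-231 2.03 and 1.62 in T and 1.04 and 1.74 in P. The difference of 0.39 ± 1.00 had an unadjusted p of 0.704 in edgeR, and its interval covered several-fold changes in either direction.

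The remaining lists had medians between -0.14 and 0.17. DNA replication genes had 0.01, with RRM2, a ribonucleotide reductase subunit, at 0.09 ± 0.23. Ribosome biogenesis genes had -0.06, with nucleolin (NCL) at -0.02 ± 0.29, and mitosis genes had -0.07. Genes of the mTOR pathway had -0.06, stress mRNAs with upstream open reading frames 0.05, mRNAs listed as sensitive to eIF4E 0.12, and immediate early and short-lived mRNAs 0.17, of which 30 of 37 lay above 0. ATF4, the stress factor governed by upstream open reading frames, was at -0.02 and -1.09 in MCF10A against -0.27 and -0.57 in MDA-MB-231 (difference 0.06 ± 0.61). Chaperones and folding enzymes of the endoplasmic reticulum had -0.14, which was 0.058 without MDA-MB-231 T of culture 1 and -0.26 without P of that culture, tRNA synthetases -0.14 with 19 of 23 below 0, selenoproteins -0.09, replication-dependent histones 0.06 and the 387 zinc finger genes 0.02.

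Transcript length moved with the line difference and with single cultures. Across 12326 genes with a GENCODE transcript length, the normoxic line difference had a Spearman rho of 0.41 with length, as a description. The median line difference was -0.29 in the shortest quintile of transcripts (median length 1276 bases) and 0.16 in the longest (7658 bases). The relation differed between cultures: rho was -0.56 in MCF10A culture 1 and -0.33 in MDA-MB-231 culture 1, but 0.03 and 0.04 in both cultures numbered 2. In MCF10A culture 1 median loading went from 0.77 in the shortest quintile to -0.69 in the longest, and in culture 2 it was 0.15 in both. Without MCF10A culture 1 the rho of the line difference was -0.32, the opposite sign.

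**Figure D5:**
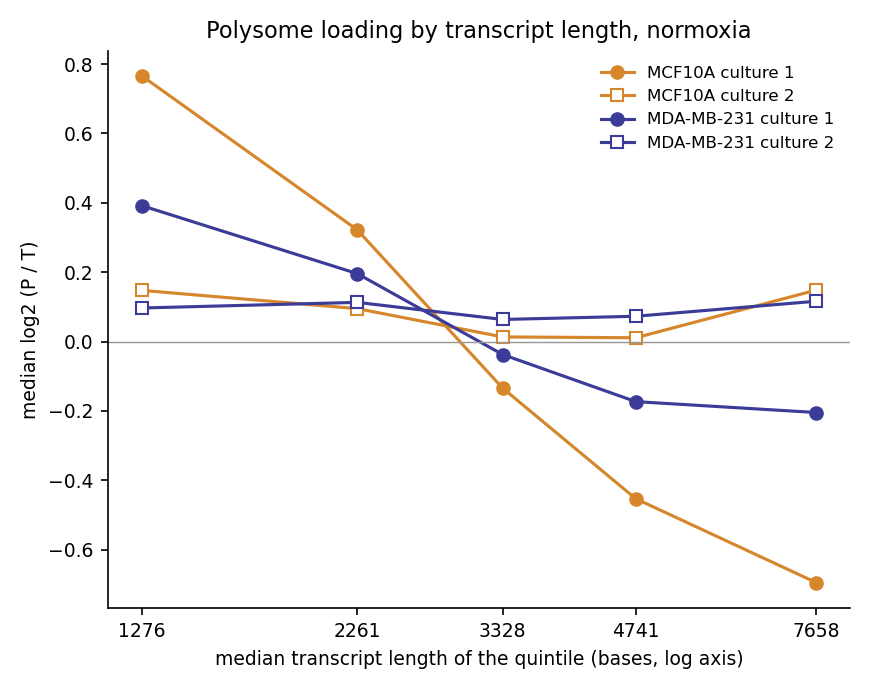
Median log2 (P/T) of mRNAs in quintiles of transcript length (x axis, median length in bases, log axis) in the 4 normoxic cultures. MCF10A culture 1 runs from 0.77 to -0.69 and MDA-MB-231 culture 1 from 0.39 to -0.20, while both cultures numbered 2 stay between 0.01 and 0.15.

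Median transcript length was 783.5 bases for the respiratory chain list, 1968.5 for the 4 mRNAs with iron-responsive elements, 1224 for the mitochondrial ribosome and 1476 for the proteasome, the lists with the lowest medians, against 3328 for all genes tested. The small and large ribosomal subunits, at 722.5 and 1017 bases, had medians of -0.05 and -0.08, which were 0.69 and 0.57 without MCF10A culture 1. The part of transcript length in the list medians was not tested. With an offset for length in each library the respiratory chain median was -0.21, that of the mitochondrial ribosome -0.098, that of the proteasome -0.086, and the ribosomal protein medians were 0.21 and 0.30. CHMP4C kept its call under this offset, at -2.10 with an edgeR adjusted p of 0.0385. The cultures numbered 1 also had lower loading of long mRNAs in H, where rho was -0.61 in MCF10A, against -0.37 in MDA-MB-231, against 0.33 and 0.24 in those numbered 2. In NPP and HPP the line difference had the opposite relation to length, with a rho of -0.21 and -0.23. There the MCF10A cultures numbered 1 and 2 still differed, at -0.35 and 0.52 in NPP and -0.35 and 0.515 in HPP, while the MDA-MB-231 cultures were at -0.09 and 0.0004 in NPP and at 0.12 and -0.06 in HPP, where their order was turned. The part of this length trend in the sign shared between N and H was not tested. The loading of the cultures also differed in how closely it was correlated: r was 0.31 between the MCF10A cultures, 0.55 between the MDA-MB-231 cultures and between 0.26 and 0.61 for pairs from different lines.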

How the data were processed

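Normoxic T and P libraries of MCF10A and MDA-MB-231 were compared within all 32 libraries of the series. According to the study's methods, poly(A) libraries (paired 76-base reads) from total RNA and from polysomal fractions of 10–50% sucrose gradients were mapped with STAR v2.5.1b to GRCh38 with GENCODE release 24 and counted per gene with RSEM v1.2.28. The study describes P as running from mRNAs with 2 ribosomes to the end of the gradient, but also places oligosomes with the free mRNA, so the lower limit of P is uncertain. The authors deposited expected counts without normalization; they were whole numbers and rounding changed 0 values. The notes in the labels name GRCh37; coordinates and lengths printed here come from GENCODE v44 on GRCh38, matched by gene ID (99.61% of genes).

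Protein-coding genes passing edgeR's count filter in each line alone (12374) were fitted with edgeR 4.0.16 (R 4.3.3): TMM scaling, 16 groups of 2 libraries, 16 residual degrees of freedom, quasi-likelihood F tests of the interaction of line and fraction, and Benjamini-Hochberg adjustment over all genes. SE is the absolute log2 difference over the square root of F. Loading of a culture is log2 CPM of P minus T with a prior count of 2, which pulls scarce genes towards 0. The pooled biological coefficient of variation was 0.249, and 0.321 and 0.147 in MCF10A and MDA-MB-231 alone, so one shared spread serves lines that differ in it. With 2 cultures per line an exact two-sided permutation test of 1 gene cannot go below 0.333. Labels call the replicates biological; nothing further on their independence is given, and counts of reads cover counting error only.

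T and P of a culture share a number in their titles, and the study's methods take both from each sample; their deviations from the group means correlated with r of -0.284 to 0.342, and the fit with the culture as a block is given where it changes a call. Genes were named by a rule on level (1 CPM in T of each line), non-overlap of cultures and p, 12 in each direction, with the most abundant member of each list and ITGB3; 4 of the genes so chosen are not reported here. Members and lists were chosen with earlier results of these data known. DESeq2 1.42.0, limma 3.58.1 (voom with weights per line), other scalings, filters, blocks, a length offset, thinning and left-out libraries were tried. The contrast averaged over H, NPP and HPP and the fit without MCF10A culture 1 were added after the data were seen. The statistics were tested on simulated data.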

Additional observations from a re-analysis of the deposited data

Results flagged for a closer look

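In normoxia, the effect of fraction differed between the lines for CHMP4C by the interaction test, with a log2 line difference of -2.25 (edgeR adjusted p = 0.0201). In the other conditions the same test found PODXL2, at 3.62 in H, 3.54 in NPP and 3.47 in HPP, with edgeR adjusted p of 0.0403, 0.0406 and 0.00826. With the culture as a block these were 0.261, 0.255 and 0.0847, and with DESeq2 0.83, 0.134 and 0.00453. FAM156B, a membrane protein gene with the near-identical copy FAM156A, had a log2 line difference of 5.59 in H (edgeR adjusted p = 0.0403) (0.0305 with the culture as a block and 0.108 with limma-voom) but 0.36 in NPP, 0.03 in HPP and 0.68 in normoxia. Whether its reads were split differently between the copies was not tested.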

How the results depend on the processing

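The number of genes called for the normoxic line difference was 1 in edgeR and stayed at 1 with RLE size factors, looser filters, thinning, all gene classes, the length offset and an added limit of 1 on the log2 difference. It was 4 with DESeq2, 0 with limma-voom, 0 with only the 8 normoxic libraries, 0 with a mean of at least 5 CPM, 0 with the replicate block of the culture, 2 with the replicate block within line and fraction, 2 at an adjusted p under 0.10, 0 without MCF10A culture 1, and from 0.0 to 3.0 with single libraries left out (3.0 without MCF10A P of culture 2, where VAMP2 and the unnamed locus RP11-977G19.10 joined CHMP4C), with the direction of CHMP4C kept wherever it was tested (it fell below a mean of 5 CPM). In H the count of 2 was 0 with limma-voom and 1 with the culture block. In NPP the count of 1, higher in MDA-MB-231, was 2 with DESeq2, of which 0 were higher and 2 lower. It was 0 with limma-voom, 0 with the culture block and 2 with the block within line and fraction (1 higher, 1 lower). In HPP the count of 1, also higher, was 4 with DESeq2 (3 higher, 1 lower) and 0, 0 and 2 (1 higher, 1 lower) under the others. For the average of H, NPP and HPP, 8 became 4 with the culture block, 181 with the block within line and fraction and 258 with the length offset. The cause of these changes was not tested.

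Within MCF10A the 171 calls between P and T became 1120 with DESeq2, 1 with limma-voom, 53 with the culture block, 1969 with the block within line and fraction, 805 with all gene classes, 1312 with the length offset and 0 without MCF10A culture 1, and 11 to 1157 with single libraries left out. Within MDA-MB-231 the calls (0.84% of genes) became 320, 2002, 23, 594, 239 and 976 under the first 6 of these, and 0 to 117 with single libraries left out. For the line difference in T, 4309 became 2612 with a mean of at least 5 CPM, where fewer genes were tested. For that in P, 5028 became 3253 there, 3199 without MCF10A culture 1, and 3339 to 5267 with single libraries left out. Among the named genes in normoxia the culture block changed the call of CHMP4C and the block within line and fraction that of PON2. In the average of H, NPP and HPP the culture block ended the calls of TOMM20, DNM1, TMEM167B and HOXC8, and the block within line and fraction ended none of the 8.

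Without MCF10A culture 1 the list medians were 0.57 and 0.69 for the large and small ribosomal subunits, 0.53 for other TOP mRNAs, 0.039 for the respiratory chain, 0.042 for the mitochondrial ribosome, -0.017 for the proteasome, -0.091 for mRNAs with iron-responsive elements, -0.19 for integrins and -0.21 for extracellular matrix. With the length offset they were 0.21 and 0.30 for the ribosomal subunits, 0.44 for mitochondrially encoded mRNAs and -0.21 for the respiratory chain. With single libraries left out they ran from -0.52 to 0.57 and from -0.49 to 0.65 for the ribosomal subunits, -0.098 to 0.43 for other TOP mRNAs, -0.39 to 0.63 for mitochondrially encoded mRNAs, -0.91 to 0.0515 for the respiratory chain, -0.65 to 0.023 for the mitochondrial ribosome, -0.57 to 0.0255 for the proteasome, -0.28 to 0.20 for histones, -0.26 to 0.058 for chaperones, 0.075 to 0.28 for immediate early mRNAs, 0.0011 to 0.13 for eIF4E-sensitive mRNAs, -0.070 to 0.41 for matrix genes, 0.034 to 0.40 for mesenchymal genes, -0.049 to 0.42 for integrins and -0.27 to 0.13 for keratins and junctions. The rho with transcript length of 0.41 became 0.037 with the length offset and -0.32 without MCF10A culture 1, and ran from -0.31 to 0.58 with single libraries left out.

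Depth and the spread between 2 cultures limit these values: the median 95% interval, not adjusted for the number of genes, reached 0.94 on either side. The shallow MDA-MB-231 T library also enters the loading of culture 2 of that line. Poly(A) libraries give relative levels within each fraction, so overall ribosome occupancy of a line was not measured here, and fewer ribosomes per mRNA cannot be told apart from fewer mRNAs on polysomes.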
